A study of Mus musculus with 4 samples.

Results

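The neurexins, neuroligins and LRRTM proteins are adhesion molecules that face each other across the synaptic cleft. The set described here holds 9 genes, *Nrxn2*, *Nrxn3*, *Nlgn1*, *Nlgn2*, *Nlgn3*, *Lrrtm1*, *Lrrtm2*, *Lrrtm3* and *Lrrtm4*, out of 55573 gene identifiers in the count tables. They were matched by name through the GENCODE mouse M21 annotation, and the set was drawn up with earlier results of these data known. All 9 passed the filter on low counts and were tested.

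The counts came from RNA sequencing of tdTomato-positive cells sorted by FACS from the basal telencephalon of mouse embryos at E16 (the day of insemination being E1). All embryos carried Hmx3-Cre, which is active in the lineage of the preoptic area (POA) that expresses the homeobox factor HMX3, and a tdTomato reporter that Cre switches on. The KO embryos also carried Dnmt1 loxP2 alleles, in which Cre removes exons 4 and 5 of *Dnmt1*, the gene of the maintenance DNA methyltransferase, whereas the WT embryos are labelled wild type for *Dnmt1*. There were 2 WT libraries (WT 1 and WT 2, cells pooled from 12 embryos) and 2 KO libraries (KO 1 and KO 2, from 6 embryos). The series text calls the libraries of a genotype biological replicates and the published methods call them technical duplicates of pooled samples, so p-values measure only the spread between these libraries.

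Neurexins are presynaptic receptors with a large, alternatively spliced ectodomain and a short cytosolic tail that binds PDZ proteins. Neuroligins and LRRTMs are postsynaptic and bind neurexins in trans, neuroligins through a domain related to acetylcholinesterase and LRRTMs through leucine-rich repeats. At E16 many interneurons of the basal forebrain are still migrating, and these genes are best known for the later assembly and maturation of synapses.

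Since DNMT1 methylates cytosine in the CG dinucleotide, the windows of 250 bases before the annotated starts of the genes were searched for CG, which is its own reverse complement, so that both strands are covered. RefSeq promoter windows (GRCm38.p6) were matched for 6 of the 9 genes, with 10 windows in all. The window of *Nlgn2* held the most CG dinucleotides, 18, and 21.7% of all 32851 windows held at least as many. *Nrxn3* has several annotated starts, and its windows ranged from 2 to 12 CG dinucleotides, around the median of 6 over all windows, of which 92.1% held at least 1. *Lrrtm4* has 2 windows, with 3 and 8 CG dinucleotides. All 250 bases of the window with 8 lie within annotated exons. The windows below were picked to span from 18 to 2 CG dinucleotides, and capitals mark each CG. These letters say nothing of methylation, which was not analysed here.
Nlgn2, chr11:69837785-69838034, minus strand: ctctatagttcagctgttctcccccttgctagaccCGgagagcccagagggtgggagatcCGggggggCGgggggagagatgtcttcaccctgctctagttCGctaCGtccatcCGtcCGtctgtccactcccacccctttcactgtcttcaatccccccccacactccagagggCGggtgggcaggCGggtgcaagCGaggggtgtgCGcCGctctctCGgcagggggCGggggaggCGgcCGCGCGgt
Nrxn3, chr12:88794254-88794503, plus strand, the start with fewest CG: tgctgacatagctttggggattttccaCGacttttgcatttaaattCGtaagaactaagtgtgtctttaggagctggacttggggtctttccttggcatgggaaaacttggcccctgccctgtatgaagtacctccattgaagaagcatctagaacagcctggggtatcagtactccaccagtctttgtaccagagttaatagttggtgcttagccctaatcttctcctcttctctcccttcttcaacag
Nrxn3, chr12:89812233-89812482, plus strand, the start with most CG: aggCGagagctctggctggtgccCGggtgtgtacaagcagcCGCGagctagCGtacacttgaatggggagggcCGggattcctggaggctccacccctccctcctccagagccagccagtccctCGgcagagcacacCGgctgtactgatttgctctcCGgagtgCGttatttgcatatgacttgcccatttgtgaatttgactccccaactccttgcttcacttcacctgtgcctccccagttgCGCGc
Lrrtm4, chr6:80018627-80018876, plus strand, the start with fewer CG: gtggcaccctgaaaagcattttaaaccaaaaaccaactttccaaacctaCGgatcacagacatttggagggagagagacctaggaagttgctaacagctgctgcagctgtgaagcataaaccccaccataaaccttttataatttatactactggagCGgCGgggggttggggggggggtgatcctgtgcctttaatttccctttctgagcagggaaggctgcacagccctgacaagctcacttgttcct

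The libraries held between 8075102 and 9995968 counts. Levels are given as CPM, counts relative to the TMM-scaled library total, on which scale 3 counts correspond to 0.294 to 0.372. *Dnmt1* itself had 385 and 446 CPM in WT and 283 and 281 CPM in KO. Each KO value was under each WT value, with a log2 fold change of -0.56 ± 0.14 (SE, n = 2 per genotype) and an edgeR adjusted p of 0.0511. It passed the threshold in 8 of 11 other settings with all libraries, and in 2 of 4 fits with a library left out (edgeR adjusted p = 1.96e-07 without WT 1, 0.00283 without WT 2, 0.386 without KO 1 and 0.521 without KO 2). The counts cover the whole gene, so they do not test the removal of the floxed exons. Markers of the labelled cell type were present in all libraries, with *Hmx3* at 71.8 to 93.7 CPM and *Gad1*, which encodes a GABA-synthesizing enzyme, at 127 to 160 CPM. WT 1 stood apart from the other libraries. Mitochondrial rRNA genes took 8.66% of its counts, against 1.51% to 2.32% in the others. The chi-square per degree of freedom between libraries of a genotype was 39.8 in WT and 3.54 in KO, where 1 is sampling noise. It was taken over raw counts of all genes with reads, mitochondrial rRNA genes included, and their part in it was not tested.

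None of the 9 genes differed between KO and WT at an edgeR adjusted p under 0.05. Of all 16832 tested genes 7.9% did, 7.33% higher in KO and 0.57% lower. None of the 9 reached an unadjusted p under 0.05 either, against 22.7% of all tested genes, and DESeq2 and limma-voom also called 0 of them. Without WT 1 the count was 0 of 9 as well, against 21.3% of the genes tested in that fit. Their log2 fold changes had a median of -0.05, close to the -0.03 of all tested genes. Both KO libraries lay above both WT libraries for *Nrxn2*, *Nlgn2* and *Lrrtm3*, that is for 3 of 9 genes, and this held for 28.3% of all tested genes. They lay below both WT libraries for 0 of 9, against 25.2% of all tested genes. With 2 libraries per genotype an exact two-sided permutation test of a single gene cannot give a p under 0.333, so the calls rest on the spread that edgeR shares across genes. In bulk samples, fewer cells of a type and less RNA per cell cannot be told apart.

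**Figure D1:**
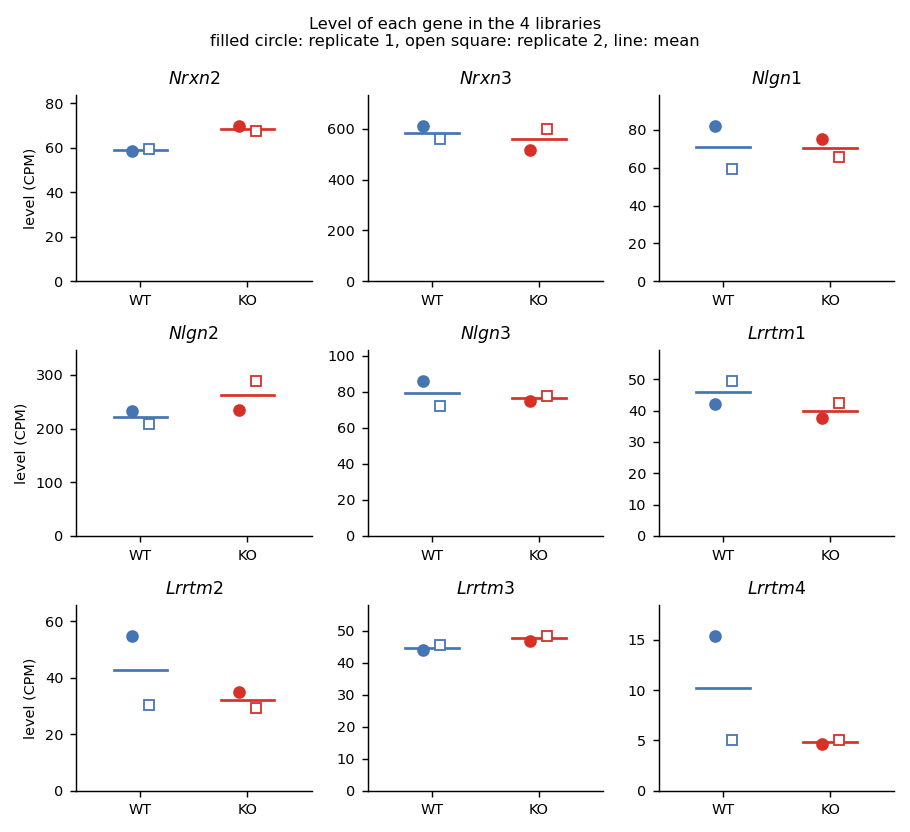
The level of each of the 9 genes in CPM (y axis, from 0) is plotted for the WT (blue) and KO (red) libraries, with replicate 1 as a filled circle, replicate 2 as an open square and a line at the mean. The KO points lie above both WT points for Nrxn2, Nlgn2 and Lrrtm3, and the WT 1 point lies apart for Lrrtm2 and Lrrtm4.

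Of the neurexins, *Nrxn3* was the more abundant per exon length. It gave 610 and 560 CPM in WT and 518 and 599 CPM in KO. The KO 1 library was the lowest and the groups overlapped, with KO 2 between the WT values. The log2 fold change of *Nrxn3* was -0.07 ± 0.15 (SE, n = 2 per genotype), with a 95% interval of the KO to WT ratio from 0.757 to 1.21 and an edgeR adjusted p of 0.831. With a library left out it lay between -0.17 (without KO 2) and 0.049 (without KO 1). *Nrxn2* gave 58.3 and 59.3 CPM in WT and 69.5 and 67.5 CPM in KO. The replicates lay close together and the groups did not overlap, KO being higher. Its log2 fold change of 0.22 ± 0.14 did not pass the test (edgeR adjusted p = 0.392), and the 95% interval of the ratio ran from 0.931 to 1.46. Between 89.1% and 92.0% of the neurexin signal per exon length came from *Nrxn3* in each library.

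*Nlgn2*, whose protein is concentrated at inhibitory synapses, was the most abundant neuroligin. It gave 233 and 208 CPM in WT and 235 and 288 CPM in KO. KO 2 was the highest, and KO 1 exceeded WT 1 only slightly. The log2 fold change of *Nlgn2* was 0.25 ± 0.16 (SE, n = 2 per genotype), with an interval of the ratio from 0.924 to 1.52 (edgeR adjusted p = 0.391). Without WT 1 it was 0.32 with an adjusted p of 0.0533, and without KO 2 it was 0.10 with an adjusted p of 0.962. The values without WT 2 and without KO 1 were 0.15 and 0.40 (edgeR adjusted p = 0.490 and 0.632). *Nlgn2* made up 72.4% and 74.6% of the neuroligin signal per exon length in WT and 74.8% and 79.0% in KO. These shares may be too high, since *Nlgn3* shares 41.2% of its exonic bases with another transcript and may have lost reads to the overlap.

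*Nlgn1*, found mainly at excitatory synapses, gave 81.9 and 59.6 CPM in WT and 75.0 and 65.9 CPM in KO. Both KO values lay between the WT values. Its log2 fold change was -0.00 ± 0.19 (SE, n = 2 per genotype), and the interval of the ratio ran from 0.741 to 1.34 (edgeR adjusted p = 0.994). *Nlgn3*, found at both kinds of synapse, gave 85.9 and 72.3 CPM in WT and 75.0 and 77.5 CPM in KO. Here too both KO values lay between the WT values. The log2 fold change of *Nlgn3* was -0.05 ± 0.15, with an interval of the ratio from 0.756 to 1.23 (edgeR adjusted p = 0.880). Without WT 1 *Nlgn1* was 0.23 and *Nlgn3* 0.070, and without WT 2 they were -0.23 and -0.18. The signs of *Nrxn3*, *Nlgn1* and *Nlgn3* also turned with the scaling. With library size as the only normalization, which moved the median of all genes from -0.03 to 0.08, their log2 fold changes were 0.05, 0.12 and 0.07.

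**Figure D2:**
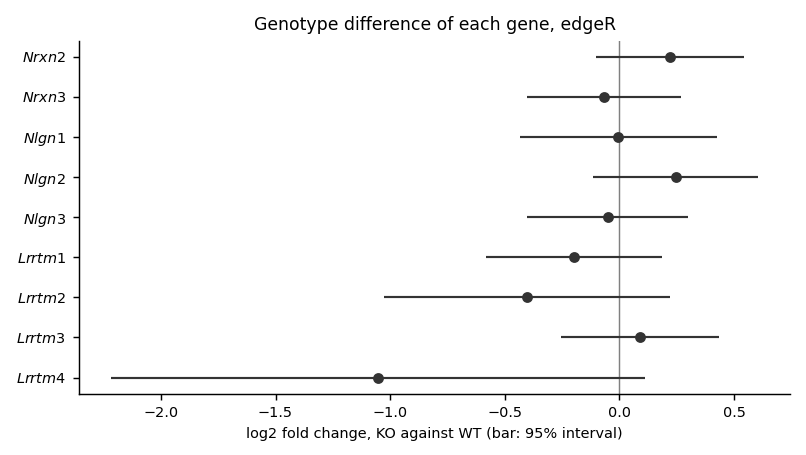
Log2 fold changes of KO against WT from edgeR (x axis) are drawn for the 9 genes as points, with bars for the 95% interval over 2 libraries per genotype. The interval of each gene includes 0, and those of Lrrtm2 and Lrrtm4 are the widest.

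The 3 lowest log2 fold changes of the set belonged to LRRTM genes, *Lrrtm4*, *Lrrtm2* and *Lrrtm1*, while *Lrrtm3* lay above 0. For *Lrrtm4*, WT 1 held 124 reads and WT 2 held 51, or 15.4 and 5.00 CPM, and the KO libraries held 39 and 46, or 4.64 and 5.07 CPM. WT 1 was far above the other libraries, which lay together, with WT 2 between the KO values. The log2 fold change of *Lrrtm4* was -1.05 ± 0.51 (SE, n = 2 per genotype), and the interval of the ratio ran from 0.215 to 1.08 (edgeR adjusted p = 0.260). Without WT 1 the log2 fold change was -0.05 (edgeR adjusted p = 0.951). Without WT 2 it was -1.67, with an edgeR adjusted p of 2.25e-06. *Lrrtm4* also passed the threshold when no filter on low counts was used (log2 fold change -1.04, edgeR adjusted p = 0.0438), where 1.91% of all genes were lower in KO.

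*Lrrtm2*, which binds neurexins at excitatory synapses, was also highest in WT 1. It gave 54.7 and 30.5 CPM in WT and 35.0 and 29.3 CPM in KO. WT 2 lay between the KO libraries. The log2 fold change of *Lrrtm2* was -0.40 ± 0.27 (SE, n = 2 per genotype), with an interval of the ratio from 0.491 to 1.17 (edgeR adjusted p = 0.420). Without WT 1 it was 0.07 (edgeR adjusted p = 0.844), and without WT 2 it was -0.78 (edgeR adjusted p = 1.05e-04). Leaving out WT 2 thus called *Lrrtm2* and *Lrrtm4* lower in KO, 2 of 9 genes, in a fit that called 12% of all its genes lower. In a fit without 1 library, the remaining library of that genotype is assumed to vary like the other genotype.

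*Lrrtm1* gave 42.2 and 49.4 CPM in WT and 37.6 and 42.3 CPM in KO. KO 2 and WT 1 were nearly equal, so the groups overlapped. Its log2 fold change was -0.20 ± 0.17 (SE, n = 2 per genotype), with an interval of the ratio from 0.668 to 1.14 (edgeR adjusted p = 0.522). With a library left out it was -0.31 without WT 1, -0.09 without WT 2, -0.10 without KO 1 and -0.28 without KO 2, and it passed in none of these 4 fits. *Lrrtm3* gave 43.9 and 45.7 CPM in WT and 47.0 and 48.5 CPM in KO. The 4 values of *Lrrtm3* lay close together, both KO values being above WT. Its log2 fold change was 0.09 ± 0.15, with an interval of the ratio from 0.839 to 1.35 (edgeR adjusted p = 0.767).

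**Figure D3:**
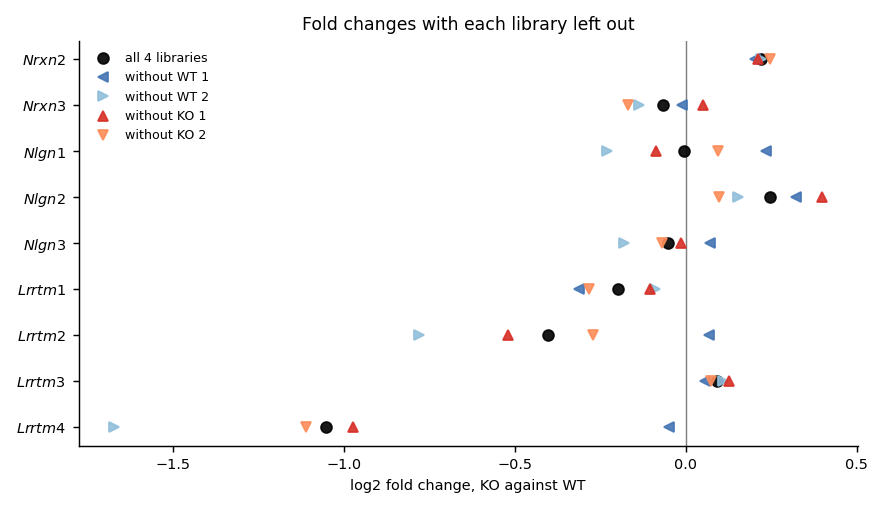
Log2 fold changes of KO against WT (x axis) are shown for the 9 genes with all 4 libraries (black circle) and with each library left out (triangles). Lrrtm4 moves from -1.67 without WT 2 to -0.05 without WT 1 and Lrrtm2 from -0.78 to 0.07, while the points of Nrxn2 and Lrrtm3 stay together.

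The difference between the WT libraries went with base composition. Among the 1405 tested genes with an exonic GC content under 40%, the median log2 ratio of WT 1 to WT 2 was 0.75, and among the 3425 genes at 55% or more it was -0.21. The corresponding medians of KO 1 to KO 2 were 0.23 and -0.12. *Nlgn1*, *Lrrtm2* and *Lrrtm4*, at 38.9%, 38.4% and 38.4% GC, are in the first class, and their log2 ratios of WT 1 to WT 2 were 0.46, 0.85 and 1.62. *Nrxn2* and *Nlgn2*, at 62.4% and 60.7% GC, are in the last class, with ratios of -0.02 and 0.17. With each library corrected for trends with exon length and GC content, the log2 fold changes were -0.07 for *Lrrtm2*, -0.64 for *Lrrtm4* and 0.27 for *Nlgn1*. In that fit 0 of the 9 genes passed the threshold, beside 2751 of all 16822 genes tested.

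Levels were compared between the genes only as CPM per kilobase of merged exons. In WT the order was *Nrxn3* at 46.4 ± 2.80 (SD, n = 2), *Nlgn2* at 38.2 ± 3.09, *Lrrtm1* at 15.1 ± 1.67, *Lrrtm3* at 10.5 ± 0.285, *Nlgn3* at 8.53 ± 1.04, *Lrrtm2* at 7.08 ± 2.85, *Nlgn1* at 5.27 ± 1.18, *Nrxn2* at 4.26 ± 0.0479 and *Lrrtm4* at 1.66 ± 1.20. The WT values of *Nlgn3* and *Lrrtm2* overlapped, as did those of *Lrrtm2* and *Nlgn1*, and the other neighbours in this order did not. The level of *Nlgn3* may be too low, since reads that also fit an overlapping transcript may not be counted. In KO the order was the same except that *Nlgn2*, at 45.2 ± 6.51, stood ahead of *Nrxn3*, at 44.3 ± 4.58, a difference smaller than their spread. Summed over each family, the level per kilobase was 52.6 and 48.7 in WT and 46.1 and 52.4 in KO for the neurexins. For the neuroligins the sums were 55.7 and 48.2 in WT and 54.3 and 63.1 in KO. For the LRRTMs they were 35.8 and 32.9 in WT and 30.0 and 31.0 in KO. Within the LRRTM family, *Lrrtm4* gave 6.99% of the sum in WT 1 and 2.47% to 2.66% in the other libraries. With the longest annotated transcript in place of merged exons, *Nrxn3* came to 73.8 and *Nrxn2* to 8.82 in WT, and the order changed. *Nrxn3*, at 70.5, then stood ahead of *Nlgn2*, at 47.0, in KO as well, and *Nrxn2* moved from rank 8 to rank 6 in WT and to rank 5 in KO.

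**Figure D4:**
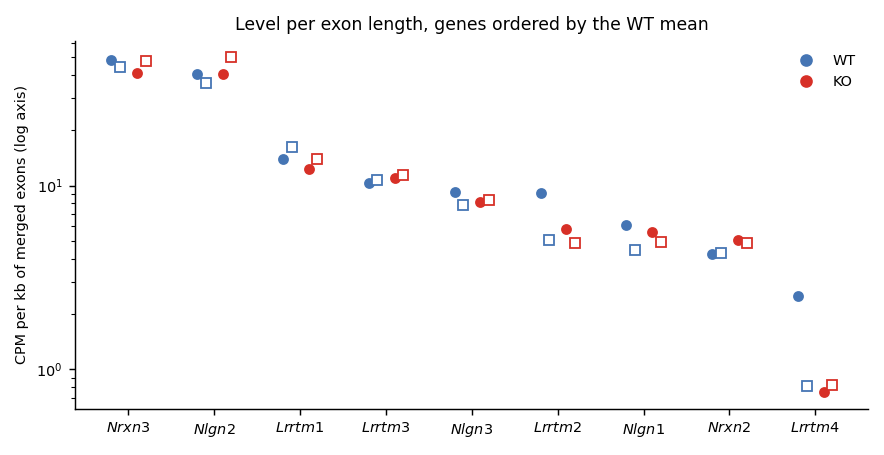
The level of each gene in CPM per kilobase of merged exons is plotted on a log axis for the WT (blue) and KO (red) libraries, with circles for replicate 1 and squares for replicate 2. Nrxn3 and Nlgn2 lie highest in all 4 libraries and Lrrtm4 lowest, with WT 1 apart for Lrrtm2 and Lrrtm4.

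The genes lie at separate loci of GRCm38 and differ greatly in length. *Nrxn3* (ENSMUSG00000066392, chr12:88722876-90334935) spans 1612 kb and *Nlgn1* (ENSMUSG00000063887, chr3:25426215-26332460) spans 906 kb. *Nlgn2* (ENSMUSG00000051790, chr11:69823122-69837784) spans 14.7 kb, *Nlgn3* (ENSMUSG00000031302, chrX:101299168-101325963) 26.8 kb and *Nrxn2* (ENSMUSG00000033768, chr19:6418731-6544169) 125 kb. *Lrrtm4* (ENSMUSG00000052581, chr6:80018877-80810143) spans 791 kb. Counts cover all exons of a gene, so the long and short neurexin isoforms, which start at different promoters, were not told apart. *Nlgn3* shares 41.2% of its exonic bases with the transcript Gm21986 on the same strand, so its counts may miss reads that fit both. *Lrrtm4* shares 25.1% with the antisense gene Gm4409, and the strand setting of the counting is not given in the sources used here.

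*Lrrtm1*, *Lrrtm2* and *Lrrtm3* lie inside the alpha-catenin genes, on the opposite strand. *Lrrtm1* (ENSMUSG00000060780, chr6:77242689-77257791) lies within *Ctnna2*, and *Lrrtm3* (ENSMUSG00000042846, chr10:63928472-64090277) within *Ctnna3*, with 0 exonic bases shared in each case. *Lrrtm2* (ENSMUSG00000071862, chr18:35209003-35215024) shares 95 exonic bases with *Ctnna1*. The host genes, which link cadherins to actin, did not pass the test with all libraries and the main settings. *Ctnna2* gave 436 CPM in both WT libraries and 350 and 322 CPM in KO (log2 fold change -0.38 ± 0.13 SE, n = 2 per genotype, edgeR adjusted p = 0.144). *Ctnna3* was low, with 11 and 13 reads in WT against 50 and 26 in KO (1.73 ± 0.54, edgeR adjusted p = 0.103), and for *Ctnna1* the difference was 0.05 ± 0.15 (edgeR adjusted p = 0.870). *Ctnna2* did pass after the length and GC correction (0.0196), without WT 1 (0.00697) and without WT 2 (0.0129), but not without KO 1 (0.613) or KO 2 (0.844). *Ctnna3* passed with library size only (0.0422), without a filter (0.0186), after the correction (0.0379), without WT 1 (0.0166) and without WT 2 (0.0272), but not without KO 1, where its log2 fold change was 1.12 (0.737), or KO 2 (0.0801).

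The partners of these proteins were described by lists of 111 genes, of which 108 were tested. Of these 7 were higher in KO and 2 lower at an edgeR adjusted p under 0.05, against 7.33% and 0.57% of all tested genes, and their median log2 fold change was -0.05. Of the 7 higher genes, 4 belonged to the secreted glial organizers, and without that list 3 of 102 genes were higher and 2 lower. Without WT 1, 14 partner genes were higher and 11 lower, beside 2578 and 1300 of all 18187 genes tested. Without WT 2 the counts were 12 and 25, beside 2029 and 2180 of 18100. Leaving out KO 1 gave 5 and 1, beside 954 and 117 of 17841, and leaving out KO 2 gave 4 and 0, beside 900 and 51 of 17724.

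Among the secreted organizers 4 of 6 tested genes rose, against 7.33% of all tested genes, the most calls of any partner list. *Sparcl1*, whose product hevin is secreted by astrocytes and bridges neurexins and neuroligins, gave 41.6 and 46.2 CPM in WT and 533 and 531 CPM in KO. Its log2 fold change was 3.60 ± 0.15 (SE, n = 2 per genotype, edgeR adjusted p = 6.33e-06). *Gpc5*, a glypican with heparan sulphate chains, gave 4.84 and 2.35 CPM in WT and 80.2 and 73.6 CPM in KO (log2 fold change 4.45 ± 0.29, edgeR adjusted p = 4.96e-05, with 5.02 without WT 1 and 3.97 without WT 2). *Gpc6*, a glypican released by astrocytes, rose by 1.11 ± 0.21 (edgeR adjusted p = 0.0141), and its adjusted p was 0.148 without KO 2. *Sparc*, named here because it completes the count, rose by 1.02 ± 0.16 (edgeR adjusted p = 0.00599). Both KO libraries were above both WT libraries for these 4 genes. Beside them, all 12 astrocyte markers were higher in KO, with a summed level of 253 to 273 CPM in WT and 4032 to 4229 CPM in KO, and with *Gfap* and *Agt* at 0 counts in both WT libraries. The part of the astrocyte RNA in the changes of these genes was not tested.

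Of the transsynaptic partners outside that list, a pair of genes passed the test. Of all tested genes, 7.33% were higher in KO and 0.57% lower. *Flrt1*, a ligand of latrophilins, gave 25.4 and 21.5 CPM in WT and 37.9 and 41.6 CPM in KO (log2 fold change 0.76 ± 0.18 SE, n = 2 per genotype, edgeR adjusted p = 0.0385), 1 of 7 latrophilin and teneurin partners. *Lrfn5*, which binds the LAR phosphatases, gave 76.0 and 74.0 CPM in WT and 50.9 and 50.0 CPM in KO (-0.57 ± 0.14, edgeR adjusted p = 0.0477), 1 of 18 genes of its list. Replicates of both genes lay close together. The adjusted p of *Flrt1* was 0.122 without KO 1 and 0.354 without KO 2, and that of *Lrfn5* was 0.427 and 0.535. *Lrfn5* also missed the threshold with library size alone (0.159), upper-quartile scaling (0.0619), limma-voom (0.0529) and a minimum of 10 counts in every library (0.0667).

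In the remaining transsynaptic lists no gene passed the threshold with all libraries and the main settings. Of the other neurexin ligands (cerebellins, neurexophilins, C1q-like proteins, dystroglycan, calsyntenins and latrophilins) 15 of 17 were tested, and the median of their log2 fold changes was -0.11. The smallest p belonged to the latrophilin gene *Adgrl2*, at 175 and 168 CPM in WT and 131 and 125 CPM in KO (-0.42 ± 0.14 SE, n = 2 per genotype, edgeR adjusted p = 0.111). The 7 synaptic immunoglobulin genes had a median of -0.00, led by *Mdga2*, whose product binds neuroligins and keeps neurexins away. *Mdga2* gave 69.9 and 43.0 CPM in WT and 79.8 and 79.6 CPM in KO (0.50 ± 0.22, edgeR adjusted p = 0.229). Its adjusted p was 7.75e-06 without WT 1, with a log2 fold change of 0.88, and 0.474 without WT 2, with 0.18. The 7 contactin-associated genes, relatives of the neurexins, had a median of -0.23, with *Cntnap2* at 72.7 and 65.7 CPM in WT and 45.9 and 49.7 CPM in KO (-0.53 ± 0.15, edgeR adjusted p = 0.0745). The calls of these genes changed with the settings. After the length and GC correction *Adgrl2* (adjusted p = 0.0210), *Cntnap2* (0.0343) and *Mdga2* (0.00289) passed. *Adgrl2* and *Cntnap2* also passed without WT 1 (0.0249 and 0.0264) and without WT 2 (0.00824 and 0.000875), but not without KO 1 (0.596 and 0.600) or KO 2 (0.785 and 0.473). Of the 5 netrin-G ligands and netrin-Gs, *Ntng1* had the smallest p (-0.26 ± 0.15, edgeR adjusted p = 0.341, with -0.17 without WT 1).

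Inside the cell, 1 of 8 presynaptic partners and 1 of 16 excitatory scaffold genes passed the test. *Lin7c*, a PDZ protein of the complex with CASK at the neurexin tail, gave 275 and 204 CPM in WT and 144 and 119 CPM in KO. Both KO libraries were well below WT, with WT 1 the highest (log2 fold change -0.87 ± 0.18 SE, n = 2 per genotype, edgeR adjusted p = 0.0253), and the adjusted p was 0.215 without KO 2. Without WT 1 the log2 fold change of *Lin7c* was -0.65 (edgeR adjusted p = 3.26e-05), and after the length and GC correction it was -0.56 (0.0142). *Dlgap1*, which ties PSD-95 to the Shank proteins, gave 44.7 and 44.8 CPM in WT and 66.0 and 69.5 CPM in KO (0.60 ± 0.14, edgeR adjusted p = 0.0434). The adjusted p of *Dlgap1* was 0.279 without KO 1 and 0.488 without KO 2, and 0.0502 with DESeq2. None of the 4 inhibitory scaffold genes passed, and *Insyn1* had the smallest p among them (0.23 ± 0.20, edgeR adjusted p = 0.529, with 0.037 without WT 1 and 0.44 without WT 2). Of 5 proteases that shed ectodomains, *Mmp9*, which cleaves neuroligins, was higher in KO, with 38 and 60 reads counted in WT and 135 and 121 in KO (1.46 ± 0.29, edgeR adjusted p = 0.0169, and 0.0753 without KO 1).

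The 10 regulators of neurexin splicing had a median log2 fold change of -0.33, against -0.03 for all tested genes, and none passed at an edgeR adjusted p under 0.05. At an unadjusted p under 0.05, 6 of 10 lay below WT, against 22.7% of all tested genes in either direction. *Khdrbs2*, whose product SLM1 controls alternative exons of neurexins, had the smallest p. It gave 37.7 and 31.3 CPM in WT and 22.1 and 19.5 CPM in KO, with no overlap (-0.73 ± 0.19 SE, n = 2 per genotype, edgeR adjusted p = 0.0594). *Khdrbs2* passed without a filter (0.0199), without WT 1 (-0.60, 0.0203) and without WT 2 (-0.87, 0.000194), but not without KO 1 (0.209) or KO 2 (0.527). After the length and GC correction it was -0.44, with an edgeR adjusted p of 0.160. Both KO libraries were below both WT libraries for 6 of the 10 listed genes, beside 25.2% of all tested genes. The summed level of general neuronal markers was also lower in KO, 6247 to 6286 CPM against 8193 to 8918 CPM, and its part in these values was not tested. Gene counts hold no information on which neurexin exons were used.

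**Figure D5:**
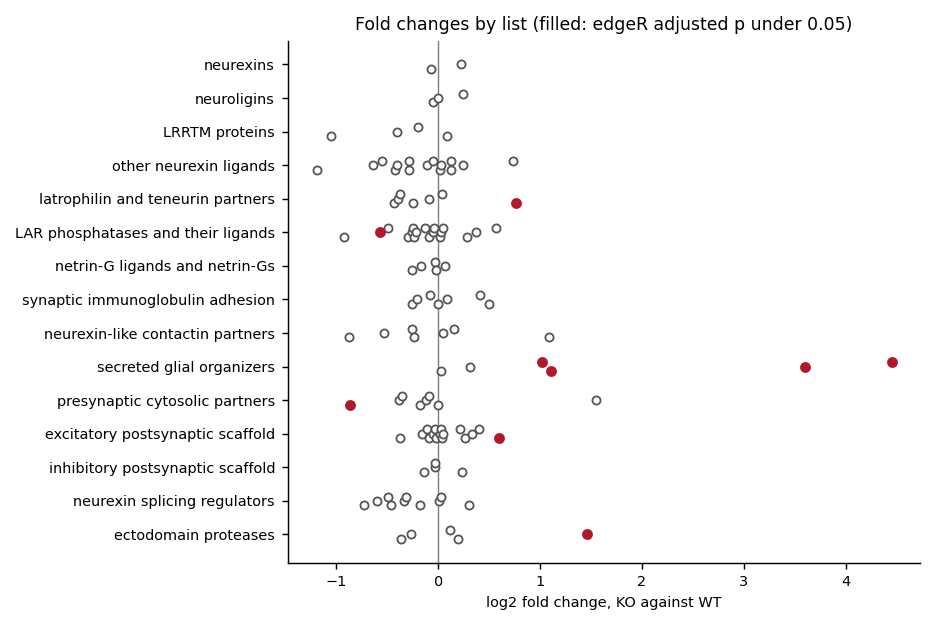
Each point is the log2 fold change of KO against WT (x axis) of 1 tested gene, in rows for the neurexins, neuroligins, LRRTM proteins and 12 partner lists, filled red where the edgeR adjusted p was under 0.05. No gene of the 3 families is filled, and the 4 filled genes of the secreted glial organizers lie between 1.02 and 4.45.

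Markers of other cells moved with the genotype. Oligodendrocyte markers were higher in KO for 7 of 8 genes (summed level 131 to 155 CPM in WT and 570 to 591 CPM in KO) and mural markers for 7 of 7 (62.7 to 71.5 CPM and 417 to 422 CPM, with *Acta2* at 0 counts in both WT libraries). The share of all tested genes called higher was 7.33%. General neuronal markers were lower for 3 of 15, namely *Syt1*, *Elavl4* and *Stmn2*, against 0.57% of all tested genes. Of the 15, 14 had a negative log2 fold change, 11 reached an unadjusted p under 0.05 and 13 had both KO libraries below both WT libraries (25.2% of all tested genes), and the median log2 fold change was -0.47. This list shares *Rbfox3* with the splicing regulators. Of the GABAergic and preoptic markers 0 of 12 passed the test in edgeR, with 3 of 12 at an unadjusted p under 0.05. Their median log2 fold change was -0.25, and 10 of the 12 were negative. For 6 of the 12 each KO value was under each WT value, against 25.2% of all tested genes, and for 0 the reverse held. Glutamatergic markers were lower for 2 of 6, *Neurod6* and *Neurod2*. In the other lists the changed genes were *Olig2* (1 of 6 oligodendrocyte precursor markers) and *Hes1* (1 of 8 of radial glia), *Csf1r* (1 of 7 of microglia), all higher, and *Hbb-bs* (1 of 5 of erythroid cells) and *Ttr* (1 of 3 of choroid plexus), both lower, while 0 of 5 endothelial markers passed. Beyond these calls, both KO libraries were above both WT libraries for 6 of 6 oligodendrocyte precursor, 6 of 8 radial glia and 5 of 7 microglia markers (28.3% of all tested genes), with 5, 4 and 5 genes at an unadjusted p under 0.05. They were below for 6 of 6 glutamatergic markers, with 5 at an unadjusted p under 0.05, and for 3 of 5 erythroid markers, with 3 at that level. Of the 5 tested endothelial markers 3 reached an unadjusted p under 0.05, with both KO libraries above WT for 2 and below for 2. The values of the genes named for these short counts were known when they were picked. The median of the 9 adhesion genes, -0.05, lay above that of the neuronal markers, and the part of the neuronal or glial RNA in their levels was not tested.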

How the data were processed

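RNA from FACS-enriched tdTomato-positive cells was sequenced in 4 libraries. Per the labels, the deposited values are raw read counts per gene, not normalized by the authors. The submitters' processing notes name CASAVA 1.8.2, STAR 2.5.2a, featureCounts 1.5.0-p1 and the build GRCm38 (mm10). The strand setting and how reads of overlapping genes were treated are not given in the sources used here.

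Of 55573 gene identifiers, 55480 were matched to GENCODE M21 (GRCm38). Genes were filtered with filterByExpr (minimum count 10), which left 16832, and tested for genotype with TMM factors and edgeR's quasi-likelihood test (edgeR 4.0.16, R 4.3.3), with Benjamini-Hochberg adjustment over all tested genes and a threshold of 0.05. SE is the absolute log2 fold change divided by the square root of the F statistic, and intervals use the total degrees of freedom. The scripts were tested on simulated data. Alternatives were DESeq2 1.42.0, limma-voom (limma 3.58.1), other scalings and filters, an adjusted p under 0.1, a block for the replicate number, a correction of trends with exon length and GC content, and each library left out.

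Members and lists were chosen with earlier results of these data known. The genes named were all 9 members, *Dnmt1*, the host genes, up to 3 genes past the threshold in each direction per partner list or else the gene with the smallest p, and marker genes by level. Fold changes and p-values of the named genes come from the fit over all genes. Total counts of 8075102 to 9995968 per library limit the precision of low genes, and floors cover counting error only. CPM per kb used merged exon lengths.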

Additional observations from a re-analysis of the deposited data

How the results depend on the processing

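Of the 9 genes, 0 were called higher in KO in any setting at an adjusted p under 0.05. An adjusted p under 0.1, applied to the main fit only, also called 0 of them higher. Of the settings tried, genes called lower numbered 1 without a filter and 0 to 2 with a library left out. Partner genes higher in KO numbered 7, and 13 after the length and GC correction with or without the block, and 4 to 14 with a library left out. Partner genes lower in KO numbered 2. They were 1 with library size only, with upper-quartile scaling, with limma-voom and with at least 10 counts, 6 without a filter, 8 after the length and GC correction and 0 to 25 with a library left out. Marker genes lower in KO numbered 7, against 11 with DESeq2, 17 without a filter, 21 after the correction and 5 to 22 with a library left out. Over all genes 1233 were higher and 96 lower (92.8% higher). With DESeq2 247 were lower, without a filter 573 (75.8% higher), with at least 10 counts 52, and after the correction 1928 were higher and 823 lower (70.1% higher). With a library left out they ranged from 900 to 2578 higher and from 51 to 2180 lower, with 66.5% higher without WT 1 and 48.2% without WT 2.

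The replicate numbers are shared only as labels (correlation of deviations 0.137 over 2 pairs). With the replicate as a block, 0 of the 9 genes were called, 9 partner genes and 15 marker genes were lower, and over all genes 1625 were higher and 619 lower (72.4% higher). Of the named genes below the threshold, the block brought *Dnmt1* (adjusted p = 0.0149), *Khdrbs2* (0.0180), *Cntnap2* (0.0325) and *Adgrl2* (0.0464) past it. With the block and the correction together, 10 partner genes and 23 marker genes were lower, and over all genes 1990 were higher and 905 lower (68.7% higher).

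Signs turned for *Nlgn1*, *Nrxn3*, *Nlgn3*, *Lrrtm2* and *Ctnna1*. *Nlgn1* was 0.12 with library size only, 0.038 with upper-quartile scaling, 0.017 with limma-voom, 0.0020 without a filter, 0.032 with at least 10 counts, 0.0083 with the block, 0.27 after the correction and 0.27 with both, and -0.23 to 0.23 with a library left out. With library size only *Nrxn3* was 0.048 and *Nlgn3* was 0.066. With a library left out *Nrxn3* ranged from -0.17 to 0.049, *Nlgn3* from -0.18 to 0.070, *Lrrtm2* from -0.78 to 0.067 and *Ctnna1* from -0.017 to 0.14. Per length of the longest transcript, WT levels were 73.8 for *Nrxn3*, 11.5 for *Lrrtm3* and 8.82 for *Nrxn2*, against 46.4, 10.5 and 4.26. Where no value is given beside a change, the cause was not tested. The 2 libraries per genotype, of which WT 1 stands apart, limit what could be called.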
